A study of Mus musculus with 6 samples.

Results

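The subject is a set of fat-linked microRNAs (miRNAs) in mouse skin, namely the mature products of miR-193b, miR-365, miR-378a and miR-455. Members were taken by name from the count table after the species prefix, the arm (5p or 3p) and the copy number were dropped, which gave 9 of 1480 entries. They are mmu-miR-193b-5p, mmu-miR-193b-3p, mmu-miR-365-1-5p, mmu-miR-365-2-5p, mmu-miR-365-3p, mmu-miR-378a-5p, mmu-miR-378a-3p, mmu-miR-455-5p and mmu-miR-455-3p, named below without the species prefix. Small RNA was sequenced from skin of mice irradiated with ultraviolet A (UVA) on alternate days over 4 months, to 89.88 J/cm2 in all, and from skin of mice that received no irradiation. Each group had 3 libraries. The sources used here give no strain, age or sex. Nothing says that the 3 libraries of a group came from different animals, so the spread behind each p-value may be technical.

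A miRNA hairpin carries a mature sequence on each arm. As a rule one arm, the guide, is loaded into Argonaute to repress mRNAs, and the other, the passenger, is degraded. miR-193b and miR-365 come from neighbouring hairpins and have been described as enriched in brown fat, where they were reported to favour brown fat cell formation in mouse cells. miR-378a lies within Ppargc1b, a gene of mitochondrial metabolism, and is abundant in muscle and brown fat. miR-455 lies within the collagen gene Col27a1, is known from cartilage, and was reported to promote brown fat cell formation in mice. Mouse skin holds a layer of dermal white fat and, beneath it, a sheet of striated muscle, so each of these miRNAs can come from more than one tissue layer.

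The sequences below are the mature miRNAs on which the comparison of arms and loci rests, 5′ to 3′, from RefSeq on build GRCm38.p6, with the seed (bases 2 to 8, the part that pairs with targets) in capitals. RefSeq sequences were matched for 7 of the 9 members, and all 7 were the same as the deposited ones. miR-193a-3p is shown because it shares its seed with miR-193b-3p.
miR-193b-5p: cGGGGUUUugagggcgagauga
miR-193b-3p: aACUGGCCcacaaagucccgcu
miR-193a-3p: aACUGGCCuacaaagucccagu
miR-365-1-5p: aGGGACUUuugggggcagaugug
miR-365-2-5p: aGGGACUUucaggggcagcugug
miR-365-3p: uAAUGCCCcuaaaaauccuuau
miR-455-5p: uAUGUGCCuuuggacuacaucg
miR-455-3p: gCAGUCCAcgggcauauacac

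The hairpins of miR-365 are shown because their 5p arms differ and their 3p arms do not. In each, the capitals mark the 5p arm and then the 3p arm.
Mir365-1: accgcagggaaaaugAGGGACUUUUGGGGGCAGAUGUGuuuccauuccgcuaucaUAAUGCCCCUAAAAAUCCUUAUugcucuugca
Mir365-2: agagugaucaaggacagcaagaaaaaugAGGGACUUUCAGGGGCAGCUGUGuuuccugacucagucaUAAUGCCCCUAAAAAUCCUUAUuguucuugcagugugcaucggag

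Mir193b (chr16:13449523-13449601, plus strand) and Mir365-1 (chr16:13453840-13453926, plus strand) are 4238 bases apart, and both lie opposite an intron of the antisense transcript Gm15738 in GENCODE. Mir365-2 (chr11:79726400-79726511, plus strand) sits 14365 bases from Mir193a (chr11:79711969-79712034, plus strand), and no other annotated gene covers either. The arms of miR-455 (chr4:63256867-63256888 and chr4:63256904-63256924, plus strand) lie in an intron of Col27a1. The 5p sequences of the miR-365 hairpins share a seed but are 3 edits apart, so their reads can be told apart as coming from chromosome 16 or 11. The 3p sequence is identical, and its reads cannot be assigned.

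miRNA reads numbered 8194504 to 12817972 per UVA library and 7653819 to 17192811 per non-irradiated library. Non-irradiated replicates 1 and 2 held 21 and 34 entries with 1 to 9 reads, against 299 in replicate 3 and 579 to 591 in the UVA libraries. Levels are given as CPM, counts per 1000000 reads after scaling with the trimmed mean of M values (TMM). Among marker lists of cells in skin, keratinocyte miRNAs summed to 34090 to 86159 CPM in UVA and 44040 to 53951 CPM in non-irradiated skin. Most of that sum was miR-203-3p, with means of 50936 and 42457 CPM, so it says little of the other keratinocyte miRNAs. The skeletal muscle list summed to 42187 to 58830 and 320247 to 480112 CPM, and the fibroblast list to 19449 to 29132 and 3401 to 6382 CPM.

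The first question was whether the level of each member differs after repeated UVA exposure. miR-365-1-5p, the arm that is specific to the chromosome 16 cluster, fell, and it was the 1 member of 9 that was called. The other 8 did not pass the test, among them miR-193b-3p and miR-455-3p, whose means were higher in UVA skin, and miR-378a-3p, whose mean was lower. All 9 passed the filter on low counts. Calls were made with edgeR's quasi-likelihood test at a Benjamini-Hochberg adjusted p of 0.05 over all 499 tested miRNAs, of which 21.8% were called in either direction and 8.22% lower. With 1 of 9, the share of members called is near that background. The calls were 68 higher and 41 lower, against 122 and 27 with unscaled library sizes and 145 and 22 with the authors' read totals. In these bulk samples fewer cells of a type and less RNA per cell cannot be told apart.

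**Figure D1:**
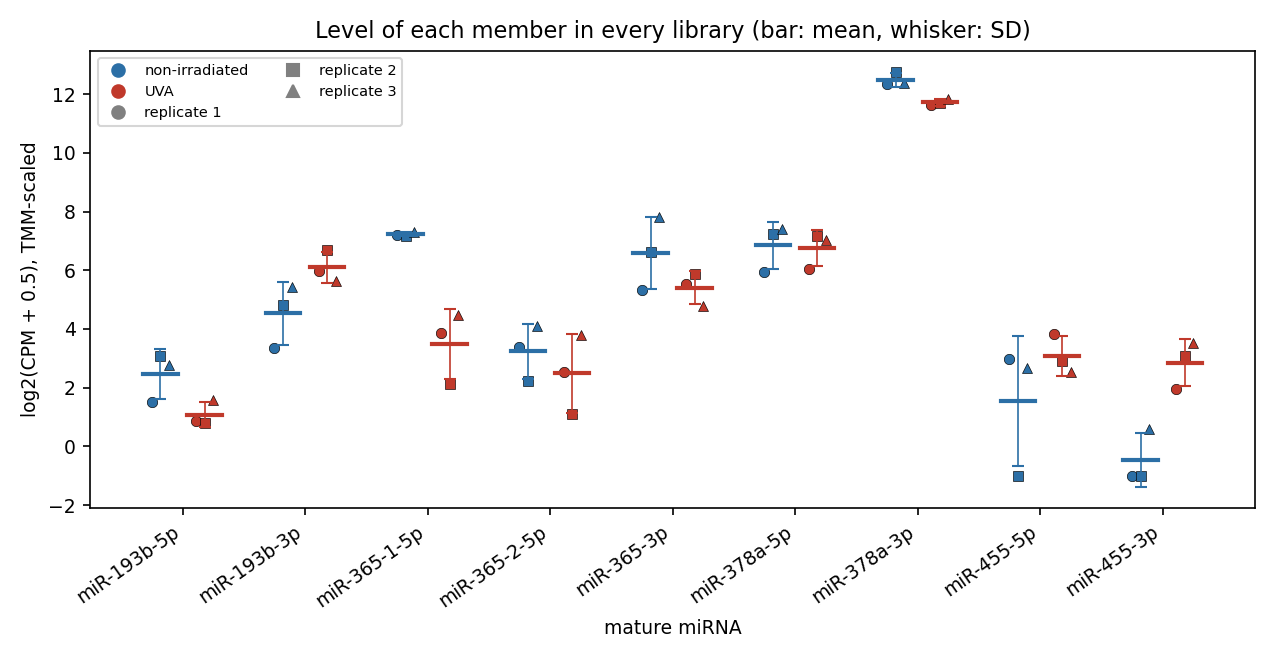
Level of each member as log2(CPM + 0.5) on the y axis for each mature miRNA on the x axis, with 1 point per library (blue, non-irradiated; red, UVA; marker shape, replicate), the mean as a bar and the SD as a whisker. The groups of miR-365-1-5p are far apart, at 143 to 158 CPM and 3.91 to 21.5 CPM, while miR-378a-3p is the most abundant member in all 6 libraries.

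miR-365-1-5p was at 148, 143 and 158 CPM in non-irradiated replicates 1, 2 and 3 and at 13.9, 3.91 and 21.5 CPM in UVA replicates 1, 2 and 3. The groups did not overlap, and the non-irradiated libraries lay close together while the UVA libraries spread widely, with replicate 2 lowest. The mean fell from 150 ± 7.45 to 13.1 ± 8.83 CPM (SD, n = 3 per group), a log2 fold change of -3.51 (SE 0.68, adjusted p = 0.00795 by edgeR). In raw reads the counts were 1786, 1872 and 1083 without irradiation and 218, 54 and 210 with it. The authors' deposited table gives it a log2 fold change of -3.48 and a q of 0.00121. The call was lost when non-irradiated replicates 1 and 2 were both left out (log2 fold change -3.99, edgeR adjusted p = 0.108), and it passed in each of the other 16 alternatives.

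miR-365-2-5p, the same arm made from chromosome 11, was at 9.97, 4.20 and 16.6 CPM in non-irradiated and 5.36, 1.67 and 13.4 CPM in UVA replicates 1, 2 and 3. The groups overlapped throughout, with a log2 fold change of -0.59 (SE 0.87, adjusted p = 0.636 by edgeR). The ratio of miR-365-1-5p to miR-365-2-5p within a library does not depend on scaling. As a log2 ratio it was 3.89, 5.08 and 3.24 in the non-irradiated and 1.37, 1.21 and 0.68 in the UVA replicates, a difference of -2.98 (SE 0.58). The groups did not overlap, and the exact permutation test, 2-sided, gave p = 0.1, the smallest that 3 against 3 allows. This pair was chosen after its values were seen, and how often pairs of other miRNAs separate was not tested.

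miR-365-3p, the arm whose sequence both hairpins share, was at 40.1, 97.8 and 225 CPM in the non-irradiated and 46.2, 58.7 and 27.2 CPM in the UVA replicates. The groups overlapped, since non-irradiated replicate 1 lay below UVA replicates 1 and 2. Its log2 fold change was -1.46 (SE 0.67, adjusted p = 0.129 by edgeR). It was -0.64 without non-irradiated replicate 3 and -2.07 without non-irradiated replicate 1. The non-irradiated libraries spread more widely than the distance between the group means, 121 ± 94.5 and 44.0 ± 15.9 CPM.

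miR-193b-3p, the more abundant arm of the neighbouring hairpin, was at 9.72, 27.4 and 42.5 CPM in the non-irradiated and 62.6, 102 and 49.2 CPM in the UVA replicates. The groups did not overlap, though non-irradiated replicate 3 and UVA replicate 3 lay close. The means were 26.6 ± 16.4 and 71.4 ± 27.7 CPM, with a log2 fold change of 1.43 (SE 0.63), which was not called (edgeR adjusted p = 0.118). The call was made with unscaled library sizes (1.95, adjusted p = 0.0483) and with the authors' read totals as library size (2.34, adjusted p = 0.0186). With 1 library left out the log2 fold change ranged from 0.83 (edgeR adjusted p = 0.383, without non-irradiated replicate 1) to 1.93, and it was 0.42 without non-irradiated replicates 1 and 2. The other arm, miR-193b-5p, was at 2.33, 8.02 and 6.41 CPM in the non-irradiated and 1.34, 1.23 and 2.46 CPM in the UVA replicates. Its groups overlapped, and it was not called (log2 fold change -1.73 with an SE of 0.86, adjusted p = 0.153 by edgeR). miR-193a-3p, which shares the seed of miR-193b-3p, was at 3.16, 5.58 and 0.582 CPM in the non-irradiated and 16.3, 10.1 and 8.30 CPM in the UVA replicates. Its groups did not overlap either, and it was not called (log2 fold change 1.88 with an SE of 0.85, adjusted p = 0.125 by edgeR).

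miR-378a-3p, the most abundant member and rank 27 of all tested miRNAs by mean CPM, was at 5195, 6985 and 5320 CPM in the non-irradiated and 3139, 3340 and 3648 CPM in the UVA replicates. All UVA libraries lay below all non-irradiated ones. The log2 fold change was -0.79 (SE 0.36) and was not called (edgeR adjusted p = 0.129). With unscaled library sizes it was -0.23 and with the authors' read totals -0.08. miR-378a-5p was at 60.8, 149 and 168 CPM and at 65.9, 143 and 131 CPM, with a log2 fold change of -0.15 (SE 0.56, adjusted p = 0.869 by edgeR). The sign turned positive under both of these scalings, at 0.38 and 0.62.

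The skeletal muscle marker list, a tissue that also makes miR-378a, had 1 of 6 tested members higher, 1 lower and 4 not called. Its median log2 fold change was -1.35, and edgeR called 13.6% of all tested miRNAs higher and 8.22% lower. The lower member was miR-1a-3p, from 362204 ± 70709 to 36976 ± 17160 CPM (log2 fold change -3.29). It made up most of the summed level of the list in every library but UVA replicate 3, where it held 20088 of 51031 CPM. The sum of the list did not overlap between the groups. The higher member was miR-133b-3p, from 90.0 ± 35.7 to 322 ± 178 CPM (log2 fold change 1.84, adjusted p = 0.0459 by edgeR). Among those not called, miR-133a-3p had a log2 fold change of -0.02, miR-206-3p of -1.16 and miR-499-5p of -1.57. The joined entry of miR-486a-5p and miR-486b-5p, also not called, had -1.54. Of the 7 listed, miR-208b-3p was too low to be tested, with 0 reads in non-irradiated replicates 1 and 2. Its means were 0.29 ± 0.50 CPM in non-irradiated and 0.08 ± 0.02 CPM in UVA skin, where 3 reads are 0.191 CPM or more. The part of muscle RNA in the values of miR-378a-3p was not tested.

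miR-378a-3p has close relatives in the table, and the sources used here do not say how reads were split between them. miR-378c differs from it by 1 edit and miR-378b and miR-378d by 2. miR-378c was at 854, 1.30 and 601 CPM in the non-irradiated and 449, 1002 and 1022 CPM in the UVA replicates. Non-irradiated replicate 2 thus held 17 reads of miR-378c where the other 5 libraries held 4124 to 13834, and the same library held the most reads of miR-378a-3p, 91459. Without that library the log2 fold change of miR-378c was -0.17 in place of 0.76, and neither was called (edgeR adjusted p = 0.843 and 0.678). miR-378b was at 1.33, 5.04 and 1.46 CPM and at 4.98, 13.8 and 24.2 CPM (log2 fold change 2.44 with an SE of 0.87, adjusted p = 0.0661 by edgeR), with groups that overlapped at a single pair of libraries. When the family was summed into miR-378a-3p, an alternative chosen after seeing the data, the log2 fold change was -0.59 (edgeR adjusted p = 0.223).

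miR-455-3p had 0, 0 and 7 reads in the non-irradiated and 53, 109 and 108 reads in the UVA replicates. These are 0, 0 and 1.02 CPM against 3.38, 7.89 and 11.1 CPM, where a floor of 3 reads per library is 0.191 to 0.437 CPM. The groups did not overlap. The fitted log2 fold change of 4.61 (SE 1.52) depends on the handling of counts of 0, and it was not called (edgeR adjusted p = 0.0556). With 1 library left out it ranged from 3.54 to 9.45, the highest without non-irradiated replicate 3, where it was called. It was called in 7 of 16 alternatives, at adjusted p down to 0.00313 with the DESeq2 Wald test, and in the authors' deposited table its q is 0.00537. The libraries with no read are the pair in which low counts are scarce, and the part of that scarcity was not tested.

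miR-455-5p, from the same hairpin, was at 7.31, 0 and 5.82 CPM in the non-irradiated and 13.7, 7.02 and 5.23 CPM in the UVA replicates. The groups overlapped (log2 fold change 0.98 with an SE of 1.25, adjusted p = 0.578 by edgeR). Non-irradiated replicate 2 had no read of either arm, which allows up to 0.229 CPM for each by counting error alone. Non-irradiated replicates 1 and 3 had 88 and 40 reads of the 5p arm. The 5p arm thus made up 100% and 85.1% of the recorded reads of the hairpin in non-irradiated replicates 1 and 3. Its share was 80.1%, 47.1% and 32.1% in the UVA replicates. Low counts are scarce in non-irradiated replicates 1 and 2, and whether reads are missing there was not tested. The bound of 0.229 CPM and the share of 100% hold only if no reads are missing. The chondrocyte marker list had 0 of 2 tested members called by edgeR, 0 at an unadjusted p of 0.05 and 0 by DESeq2, with sums of 516 to 720 CPM in non-irradiated and 514 to 662 CPM in UVA skin. The arms of miR-675, also on this list, were not tested and went in opposite directions. miR-675-5p had 0 reads in each non-irradiated library and a mean of 0.22 ± 0.17 CPM in UVA skin. There, 3 reads are 0.191 to 0.307 CPM. miR-675-3p had means of 1.62 ± 2.32 CPM in non-irradiated and 0.31 ± 0.05 CPM in UVA skin. Whether miR-675 lost reads in non-irradiated replicates 1 and 2 was not tested either. miR-140-3p, a miRNA of cartilage, was at 391 ± 70.1 and 355 ± 19.8 CPM.

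Of the whole set, 6 of 9 members had negative and 3 positive log2 fold changes, with a median of -0.59 beside 0.27 over all 499 tested miRNAs. Of the 5p arms 4 of 5 were negative, and of the 3p arms 2 of 4. Of the 5 entries named miR-193b or miR-365, 4 were negative, and the median was -1.46, while the median of the 4 entries of miR-378a and miR-455 was 0.42. The former 5 are not all products of the chromosome 16 cluster, since miR-365-2-5p comes from chromosome 11 and miR-365-3p from either locus. Groups did not overlap in 4 of 9 members, where 48.3% of all tested miRNAs had such groups. An unadjusted p of 0.05 or lower was reached by 3 of 9 members and by 40.7% of all tested miRNAs.

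**Figure D2:**
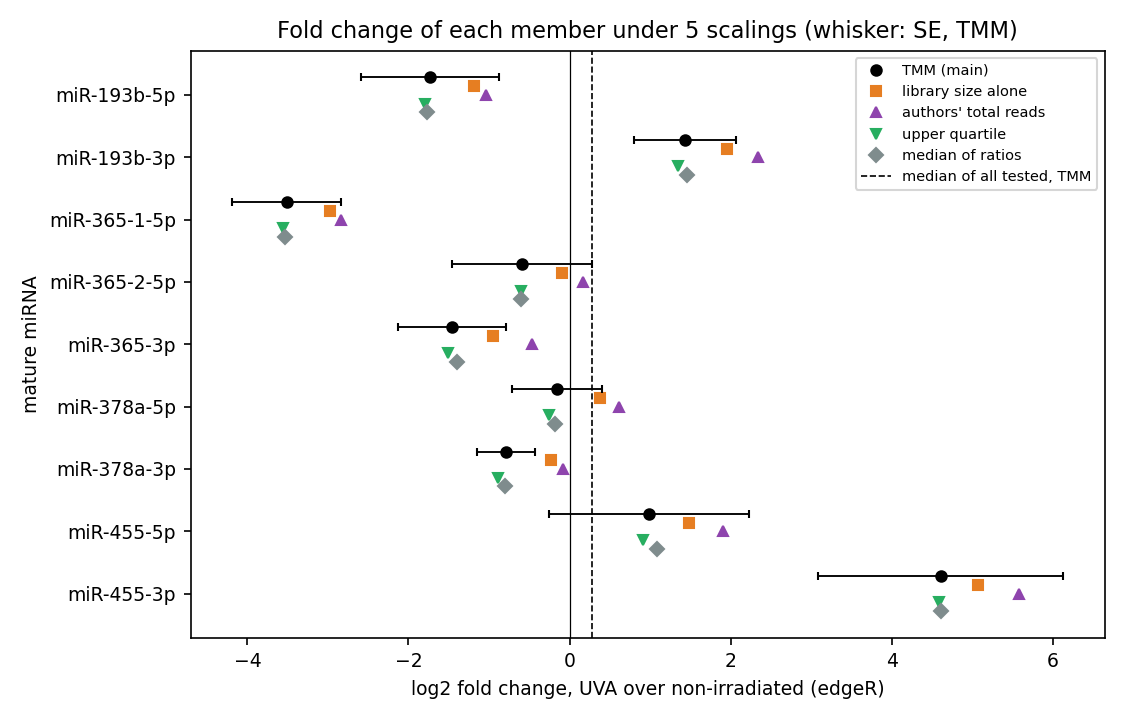
Log2 fold change of UVA over non-irradiated skin on the x axis for each member on the y axis, by edgeR under 5 scalings (TMM, library size alone, the authors' read totals, upper quartile and median of ratios), with the SE of the TMM value as whisker and the median of all tested miRNAs, 0.27, as dashed line. Library size alone, which leaves library sizes unscaled, and the authors' read totals move every member to the right, to medians over all tested miRNAs of 0.81 and 1.07, and the signs of miR-193b-3p, miR-193b-5p, miR-365-1-5p, miR-365-3p, miR-378a-3p and both miR-455 arms are the same in all 5.

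The next question was whether the arms of a hairpin keep their ratio. The ratio of 5p to 3p reads is taken within a library and is free of scaling between libraries. The arms of miR-193b separated: the share of the less abundant arm, miR-193b-5p, was 19.3%, 22.6% and 13.1% of the reads of the hairpin in non-irradiated replicates 1, 2 and 3 and 2.10%, 1.19% and 4.76% in the UVA replicates. The groups did not overlap, as in 44.8% of all tested hairpins, with UVA lower in 24.1%. These shares rest on few reads of the 5p arm, 28, 105 and 44 in the non-irradiated and 21, 17 and 24 in the UVA replicates. The log2 ratio of 5p to 3p was -2.18 ± 0.49 in non-irradiated and -5.38 ± 1.03 in UVA skin (SD, n = 3 per group), a difference of -3.21 (SE 0.75, limma adjusted p = 0.000172 over 87 hairpins). Among these 87 hairpins 36.8% were called in either direction, 20.7% toward the 3p and 16.1% toward the 5p arm, and 5 had a more negative difference than miR-193b. The call was kept in all 10 alternatives that could give it, with limma adjusted p from 1.49e-05 to 0.0140.

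The miR-365 ratio, with both 5p copies summed over the shared 3p arm, was 1.98, 0.59 and -0.37 in the non-irradiated and -1.26, -3.39 and 0.36 in the UVA replicates. The groups overlapped, since UVA replicate 3 lay above non-irradiated replicate 3. The difference was -2.16 (SE 0.75, limma adjusted p = 0.0154). That SE rests on a variance shared by all hairpins, while miR-365 spread more widely, with SDs of 1.18 in non-irradiated and 1.88 in UVA skin. The call thus rests on a smaller spread than this hairpin shows. It was lost without UVA replicate 2 (-1.18, adjusted p = 0.300), without non-irradiated replicate 1 (-1.54, adjusted p = 0.168) and without non-irradiated replicate 2 (-2.23, adjusted p = 0.140). With miR-365-1-5p alone as 5p arm, chosen after seeing the data, the difference was -2.63 (limma adjusted p = 0.00254). The groups overlapped here too, with 210 over 265 reads in UVA replicate 3 and 1083 over 1544 in non-irradiated replicate 3. This ratio also sets an arm of 1 locus over a 3p arm that either locus can make. The 5p arms outnumbered the 3p arm in libraries of both groups, with 1906 against 483 and 1927 against 1280 reads in non-irradiated replicates 1 and 2 and 341 against 265 reads in UVA replicate 3.

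miR-378a kept most reads on the 3p arm in every library. Its 5p share was 1.16%, 2.09% and 3.07% in the non-irradiated and 2.06%, 4.12% and 3.46% in the UVA replicates, with groups that overlapped. The difference of the log2 ratio was 0.68 (SE 0.75, limma adjusted p = 0.482). The SE is the same for the hairpins because limma estimated a single variance for all of them. miR-455 had too few reads for this test. The relative miR-193a, which also fell short of 10 reads in a library, had a 5p share of 69.8%, 60.1% and 93.4% in the non-irradiated and 19.0%, 46.9% and 74.2% in the UVA replicates.

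**Figure D3:**
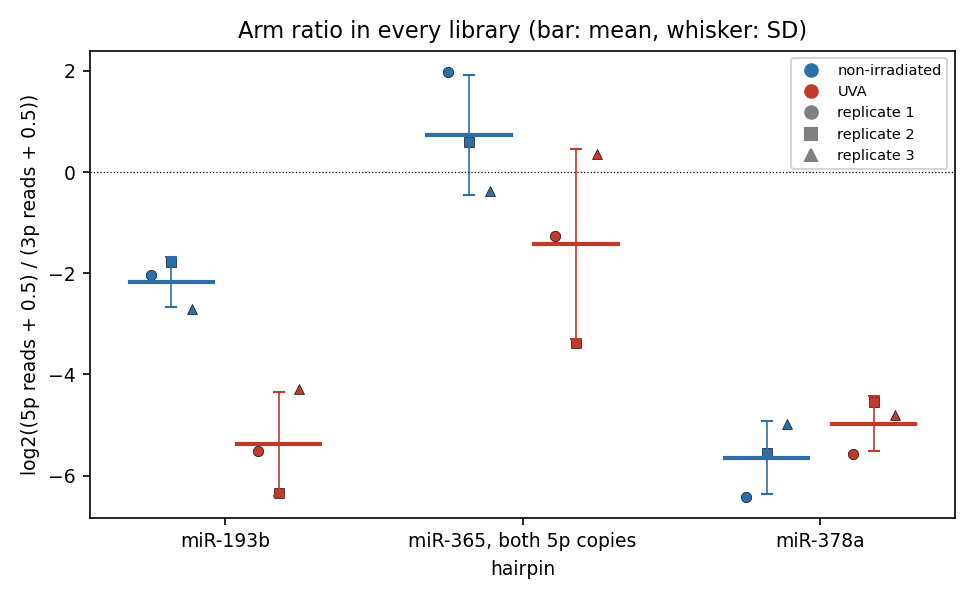
Log2 ratio of 5p to 3p reads (0.5 added to each) on the y axis for the 3 hairpins with enough reads on the x axis, with 1 point per library (blue, non-irradiated; red, UVA), the mean as a bar and the SD as a whisker. The groups of miR-193b are apart, at a mean of -2.18 and -5.38, while those of miR-365 and miR-378a overlap.

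miR-193b and miR-365 were then compared with each other and with the other members by the ratio of 3p arms within each library, over 5 pairs. miR-193b-3p comes from the chromosome 16 cluster, and miR-365-3p from there or from chromosome 11, and neither was called on its own. In the non-irradiated replicates miR-193b-3p had 117, 359 and 292 reads where miR-365-3p had 483, 1280 and 1544, and in the UVA replicates it had 981, 1415 and 480 reads where miR-365-3p had 724, 811 and 265. The log2 ratio was -2.04, -1.83 and -2.40 in the former and 0.44, 0.80 and 0.86 in the latter. Spread within each group was small, with SDs of 0.29 and 0.23, and the difference was 2.79 (SE 0.21). miR-365-3p had more reads in 3 of 3 non-irradiated and miR-193b-3p in 3 of 3 UVA libraries. The exact permutation test, 2-sided, gave p = 0.1, the smallest this design allows, and 0.125 after adjustment over the 5 pairs. Leaving out each library in turn gave differences of 2.64 to 2.92. Library preparation captures sequences unequally, so the ratio bears on the change between groups and not on molecules per cell.

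miR-193b-3p over miR-378a-3p was -9.06, -7.99 and -6.96 on the log2 scale in the non-irradiated and -5.65, -5.03 and -6.21 in the UVA replicates, a difference of 2.38 (SE 0.69), and of 1.85 to 2.90 with 1 library left out. miR-365-3p over miR-378a-3p overlapped between the groups, with a difference of -0.41 (SE 0.81, exact permutation p = 0.8, 2-sided). Without non-irradiated replicate 3 the difference was 0.26. Ratios to miR-455-3p rest on its counts of 0 in non-irradiated replicates 1 and 2. miR-193b-3p over miR-455-3p differed by -4.21 (SE 1.37) and miR-378a-3p over miR-455-3p by -6.58 (SE 1.72), and with 1 in place of 0.5 reads added the differences were -3.52 and -5.89. With 1 library left out the former ranged from -5.34 to -3.24 and the latter from -8.23 to -5.62, with the ends at non-irradiated replicates 3 and 2. Each of these pairs except miR-365-3p over miR-378a-3p had groups that did not overlap, with exact permutation p = 0.1 and adjusted p = 0.125. How often pairs of other miRNAs separate in this way was not tested, and of single tested miRNAs 48.3% did.

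**Figure D4:**
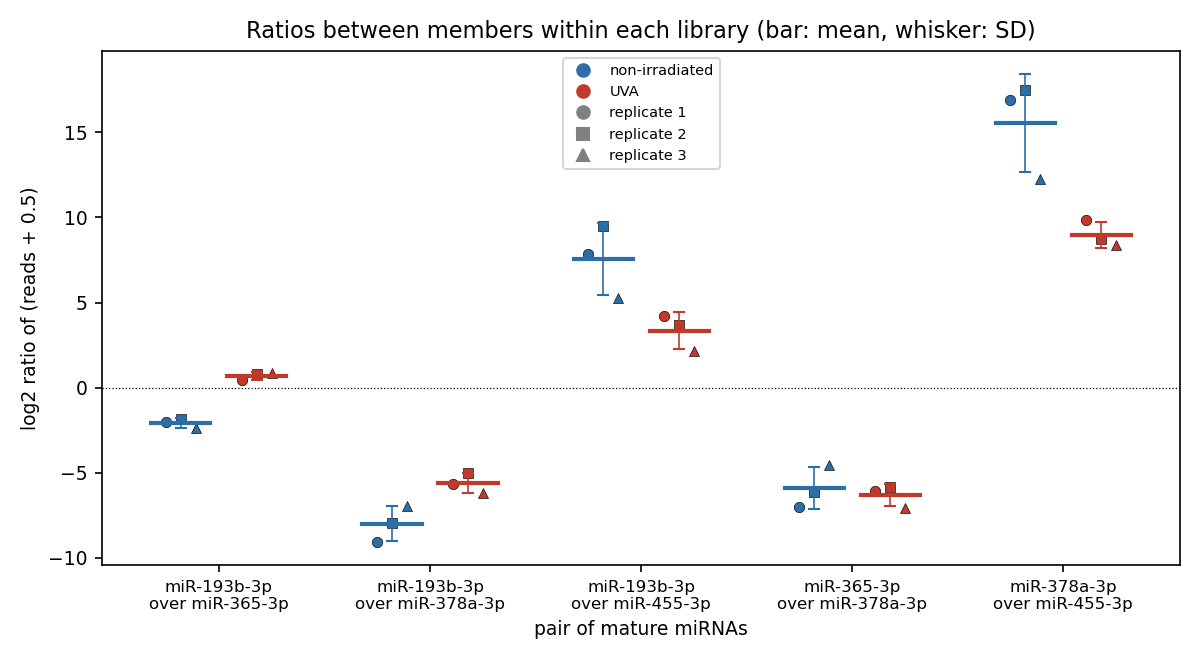
Log2 ratio of reads (0.5 added to each) between pairs of members on the y axis, by pair on the x axis, with 1 point per library (blue, non-irradiated; red, UVA), the mean as a bar and the SD as a whisker. The ratio of miR-193b-3p to miR-365-3p lies at -1.83 or lower in non-irradiated and at 0.44 or higher in UVA libraries, with the smallest spread of the 5 pairs.

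Profiles over the 6 libraries were compared by the root mean square distance of log2(CPM + 0.5), each centred on its own mean. The closest profiles to miR-193b-3p among all tested miRNAs were miR-12184-5p (distance 0.31) and miR-199a-5p (0.42), a miRNA of fibroblasts. miR-365-3p was closest to miR-145a-5p (0.21), which is known from smooth muscle and stands in the fibroblast marker list used here, and miR-365-1-5p to miR-1981-5p (0.36). miR-378a-3p lay nearest to miR-7015-3p and miR-24-3p (0.24 for both), and miR-455-3p to miR-423-3p (0.35). Of these, miR-12184-5p had means of 0.62 CPM in non-irradiated and 2.19 CPM in UVA skin, and miR-7015-3p of 1.93 and 0.73 CPM. At such levels the added 0.5 CPM shrinks differences, so the closeness of these profiles depends in part on it. The same holds for the low miR-455-3p. Among the members themselves the closest profiles were those of miR-193b-5p and miR-378a-3p (0.54), and the arms of miR-193b lay 1.59 apart.

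The members were set beside other miRNAs known from fat. Of 10 miRNAs reported to favour brown or beige fat, all were tested, 0 were called higher and 1 lower by edgeR, with a median log2 fold change of 0.73. At an unadjusted p of 0.05 there were 5 higher and 1 lower, and the DESeq2 Wald test called 5 higher and 2 lower. The 1 called lower by edgeR was miR-182-5p, from 7628 ± 1712 to 2233 ± 130 CPM (n = 3 per group, edgeR adjusted p = 0.0122). The abundant miR-26a-5p did not pass, with 51829 ± 4513 CPM in non-irradiated and 62656 ± 12848 CPM in UVA skin. Of 11 tested miRNAs reported to oppose brown or beige fat, 6 were higher, 0 lower and 5 not called, with a median of 1.70. An unadjusted p of 0.05 and the DESeq2 Wald test each gave 8 higher and 0 lower. Examples are miR-27b-3p, which represses Pparg, the master regulator of fat cells, from 8471 ± 2059 to 29263 ± 16358 CPM, and miR-34a-5p from 21.2 ± 9.92 to 112 ± 60.6 CPM. Of all tested miRNAs edgeR called 13.6% higher, an unadjusted p of 0.05 gave 25.1% higher and 15.6% lower, and DESeq2 called 22.8% higher and 15.4% lower. Those shares are the background of each fat list.

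Of 9 miRNAs reported to favour fat cell formation, 2 were higher, 1 lower and 6 not called, with a median log2 fold change of 0.10. An unadjusted p of 0.05 and the DESeq2 Wald test each gave 2 higher and 3 lower. miR-107-3p was higher (log2 fold change 3.10, edgeR adjusted p = 0.00924) and miR-143-3p, which is also a main miRNA of smooth muscle, was lower (-1.59, adjusted p = 0.0255 by edgeR). Of 8 miRNAs reported to oppose it, 5 were higher, 0 lower and 3 not called, with a median of 1.66 and the same counts of 5 and 0 at an unadjusted p of 0.05 and by DESeq2. They were miR-27a-3p and miR-27b-3p, which are in both opposing lists, miR-221-3p, miR-222-3p and miR-31-5p. Many of these miRNAs are also made outside fat, in fibroblasts and epidermis. Of the 5 tested fibroblast markers edgeR called 3 higher, beside 13.6% of all tested miRNAs. Not called were miR-214-3p (log2 fold change 1.14) and miR-145a-5p (-1.29). Of the 7 tested keratinocyte markers 1 was higher, 0 lower and 6 not called, with a median log2 fold change of 0.85. The higher one was miR-205-5p, from 672 ± 196 to 5256 ± 2057 CPM (log2 fold change 2.97, adjusted p = 0.0045 by edgeR). The part of fibroblasts and epidermis in the values was not tested.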

How the data were processed

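Small RNA libraries of 3 UVA and 3 non-irradiated skin samples were analysed. The deposited counts are whole reads per mature sequence. The authors' deposited RPM values relate the same counts to a larger total per library, recovered here as the authors' read totals. Per the file headers, the authors also deposited a mean of normalized signal, fold ratios, log2 fold changes, p-values and q-values. Bowtie is listed by the submitters' processing notes. No version, genome build or miRNA release was given in the sources used here.

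All entries passing filterByExpr entered 1 quasi-likelihood fit with edgeR 4.0.16 (R 4.3.3), with TMM factors and Benjamini-Hochberg adjustment. Alternatives used DESeq2 1.42.0 and limma-voom (limma 3.58.1). The SE of an edgeR log2 fold change is its absolute value over the square root of F. For arm ratios the SE comes from the variance that limma estimated. For ratios between members it comes from the pooled SD of the groups. Arm ratios were tested with limma where both arms had at least 10 reads in every library. Ratios between members used the exact permutation test over samples. Replicates all differed beyond sampling noise, and the fits were tested on simulated data. Floors are 3 reads per library and cover counting error only, since no molecular identifiers are reported.

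Members and lists were chosen with earlier results of these data known. Named besides every member are relatives of miR-193 and miR-378, the most abundant or lowest-p entries of each list, and the closest profiles. miR-327 of the lists was not analysed here.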

Additional observations from a re-analysis of the deposited data

How the results depend on the processing

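The 109 called miRNAs became 167 under the authors' read totals and 191 with the DESeq2 Wald test. Leaving out 1 library gave 38 to 124 calls, namely 38 with UVA replicate 2 out, 57 with non-irradiated replicate 1 out and 63 with non-irradiated replicate 2 out at the low end. Without both of these non-irradiated libraries 1 miRNA was called and 0 members, where the lone library left is assumed to vary like the UVA libraries. The count of called members, 1 in the report, was 3 under unscaled library sizes and 3 under the authors' read totals (miR-365-1-5p, miR-193b-3p and miR-455-3p), where 29.9% and 33.5% of all tested miRNAs were called. It was 2 (miR-365-1-5p and miR-455-3p) with the DESeq2 Wald test, limma-voom, no filter and the replicate block, where 38.3%, 30.3%, 8.38% and 21.2% were called. It was 1 or 2 when single libraries were left out, with 2 without non-irradiated replicate 3. miR-455-3p could not be tested with 10 or more reads in every library.

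Signs changed for members near 0. miR-378a-5p had a log2 fold change of 0.38 under unscaled library sizes and 0.62 under the authors' read totals, and -0.73 to 0.05 when 1 library was left out (0.047 without UVA replicate 1, 0.025 without non-irradiated replicate 3). miR-365-2-5p was at 0.16 under the authors' read totals. With 1 library left out, miR-193a-5p ranged from -0.32 (UVA replicate 3 out) to 0.93 and miR-378c from -0.17 (non-irradiated replicate 2 out) to 1.05. The cause was not tested. Hairpins called for arm ratio numbered 32, and 19 to 37 without single libraries, with 19 without non-irradiated replicate 2. The miR-365 arm ratio ranged from -3.06 to -1.18 without single libraries, and that of miR-193b from -3.75 to -2.73. miR-193b could not be tested with 20 or more reads of each arm.

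Deviations of same-numbered libraries from their group means had correlations of -0.062 to 0.090, and those of other pairs -0.094 to 0.132. No pairing by number was seen, though with 3 libraries per group these values cannot settle whether libraries were paired. With the replicate block the miR-365 arm ratio of -2.16 lost its call (adjusted p = 0.0658 by limma), the miR-193b call stayed, and 106 miRNAs were called in place of 109.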
